A study of Mus musculus with 8 samples.

Results

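The mitochondrial genome of the mouse encodes 37 genes, and all of them were followed in whole-kidney RNA of 8 mice. They were found by matching the Ensembl gene identifiers of the deposited tables, version removed, to GENCODE M21 (GRCm38) and keeping every gene on chrM. All 37 were among the 55401 genes listed, with 13 mRNAs, 2 rRNAs and 22 tRNAs. The 4 control mice had *Sik1*, *Sik2* and *Sik3*, which encode the salt-inducible kinases, flanked by loxP sites (floxed) and no Cre. The 4 SIK mutant mice carried Six2-Cre as well, which recombines floxed DNA in nephron progenitors and in the epithelium that descends from them, and cells of other lineages are not its target. The labels give floxed *Sik1* on both alleles, while the study's text describes the surviving mutants as having 1 floxed *Sik1* allele, and for that reason the group is called SIK mutant. Age, sex, litter and library batch are not in the labels, and nothing there gives the strain.

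Mitochondrial DNA is transcribed on both strands into long precursors, in which tRNAs lie between most of the other genes. Excision of the tRNAs releases the rRNAs and mRNAs. The 13 protein-coding genes are called mRNAs below, and the levels given are those of annotated genes, not of separate RNA molecules. They encode core subunits of respiratory complexes I, III, IV and V, to which nuclear genes add the remaining subunits. Proximal tubule cells, the most abundant cells of the kidney, are rich in mitochondria. The nucleus also holds old copies of mitochondrial DNA, and such copies take part in what follows.

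A stretch of chromosome 1 (chr1:24611535-24616197, minus strand) holds 7 annotated unprocessed pseudogenes that are near-identical to chrM genes. Sequence ends are shown because they are where gene and copy can be told apart. The sequences are from the GENCODE M21 transcripts, 5′ to 3′, and capitals mark bases that the copy lacks or that differ. The end of *mt-Co3* (chrM:9364-9390, plus strand) and that of its copy *Gm28437* (chr1:24613189-24613214, minus strand) differ by 1 base of the annotated length.
mt-Co3: acgtctccatttattgatgaggatctT
Gm28437: acgtctccatttattgatgaggatct
The other 783 bases are 100% identical. The end of *mt-Co2* (chrM:7670-7696) carries a TAA stop codon that the annotation of *Gm28661* (chr1:24614885-24614908) does not include.
mt-Co2: gaaaactgatctgcttcaataattTAA
Gm28661: gaaaactgatctgcttcaataatt
The same holds for *mt-Atp6* and *Gm10925*, for *mt-Nd4l* and *Gm10222*, and for *mt-Nd3* and *Gm28438*. The last pair also has 1 substitution, T3C, counted from the first base of *mt-Nd3* (chrM:9459-9482, with the copy at chr1:24613096-24613119).
mt-Nd3: atTaacctgtacactgttatcttc
Gm28438: atCaacctgtacactgttatcttc
*Gm29216* matches the last 483 of the 1545 bases of *mt-Co1* with 1 substitution, A1066T, and its first bases differ more. The window begins at chrM:6381-6407 in *mt-Co1* and at chr1:24616171-24616197 in the copy.
mt-Co1: ggTCtAAcCggaAttgttttatccaac
Gm29216: ggATtGGcAggaTttgttttatccaac
The seventh copy, *Gm28439*, matches the first 876 of the 1378 bases of *mt-Nd4* and was credited with 0 counts in every kidney.

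RSEM shares reads that fit several genes, and in 5 of these pairs it credited most reads to the nuclear copy. *Gm28437* held 93.5% to 95.8% of the counts of its pair with *mt-Co3* across the 8 kidneys. The copy's share was 97.2 to 98.1% in controls for *Gm28661*, 96.2 to 97.1% for *Gm10925*, 97.1 to 99.0% for *Gm10222* and 94.0 to 96.7% for *Gm28438*. *Gm29216* held 12.5 to 13.9% of its pair in controls. The groups overlapped in the split of every pair. The estimate itself was loose for *mt-Co3*, and also for *mt-Co2* and *mt-Atp6*. For *mt-Co3*, control 1 had 18853 expected counts with a posterior SD of 13226 reads. RSEM's posterior mean put 70.4% to 71.5% of that pair on the copy, below the share by expected counts. For *mt-Co2*, control 4 had 5257 expected counts with a posterior SD of 3338 reads. *mt-Atp6* had posterior SDs of 2796 to 3788 reads on 7287 to 11937 expected counts across the kidneys. The level of these chrM genes as deposited is therefore uncertain, and each was also analysed as the sum of gene and copy, called merged below. Whether the reads came from chrM or from chromosome 1 cannot be told apart in these files. The other 21 nuclear copies found held at most 27.8 counts in any kidney.

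**Figure D1:**
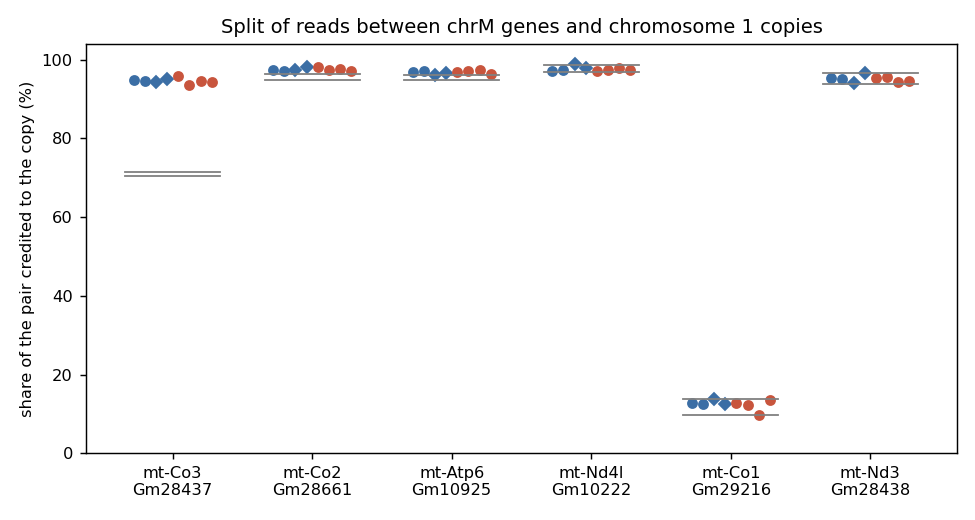
Share of each pair's expected counts credited to the chromosome 1 copy (%), 1 point per kidney, controls in blue and SIK mutants in red, with diamonds for the kidneys that lack Y-linked reads. Gray lines mark the lowest and highest share by RSEM's posterior mean. Of the 6 pairs drawn, the points lie above 93% in 5 and below 14% in *mt-Co1* with *Gm29216*, the pair of *mt-Nd4* and *Gm28439*, at 0% in every kidney, is not drawn, and the posterior mean for *mt-Co3* lies near 71%.

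Depth was even, with 10179648 to 10925100 expected counts per kidney. *Sik3* was lower in all 4 mutants, at 41.4, 39.7, 43.1 and 33.7 CPM against 58.6, 66.5, 65.7 and 61.0 CPM in controls. *Sik2* overlapped between the groups and *Sik1* was above the controls in every mutant, with CPM of 54.1, 52.3, 52.5 and 43.4 against 41.1, 36.8, 43.1 and 42.3. Controls 3 and 4 had no or almost no Y-linked reads, whereas the other 6 kidneys had them. Tubule markers were present in every kidney. The adipocyte list summed to 0, 2.77, 132 and 26.5 CPM in controls 1 to 4 and 115, 91.1, 106 and 147 CPM in mutants 1 to 4. The red cell list was highest in mutants 1 and 4, at 2937 and 2567 CPM. The part of these cell types in the results below was not tested.

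In whole kidney, chrM genes were among the main products as deposited. Their share of all counts was 15.3, 14.7, 14.7 and 14.6% in controls 1 to 4 and 13.5, 13.8, 14.8 and 14.8% in mutants 1 to 4. The groups overlapped, with 14.8 ± 0.325% against 14.2 ± 0.685% (mean ± SD, n = 4 each). The 95% Wilson interval of control 1 was 15.27% to 15.31%, so counting error was far below the spread between kidneys. That interval does not cover the split of reads with the copies. By RSEM's posterior mean, control 1 was at 16.2%, and the groups, which overlapped, were at 15.7 ± 0.299% and 15.1 ± 0.637%. Nearly all of the share by expected counts was mRNA, at 14.5 ± 0.327% in controls and 14.0 ± 0.694% in mutants. In the share of TPM, chrM genes were at 18.6 ± 0.232% in controls and 18.5 ± 0.759% in mutants. *mt-Atp8* alone held 35509 ± 526 TPM in controls and 36515 ± 872 TPM in mutants. Its effective length was only 19.4 to 25.4 bases, so the share of TPM is uncertain.

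The rRNAs, *mt-Rnr1* (12S, small ribosomal subunit) and *mt-Rnr2* (16S, large subunit), took 0.273, 0.211, 0.302 and 0.290% of counts in controls and 0.251, 0.198, 0.249 and 0.185% in mutants. The mean changed by −17.8% in mutants, within overlapping groups. Where Y-linked reads were present, 2 controls averaged 0.242% and 4 mutants 0.221%, a difference of −0.0212 percentage points against −0.0480 over all 8. The 22 tRNAs, 59 to 75 bases long, were at 0 counts in all 8 kidneys. RSEM gave each an effective length of 0, as it did for 5023 genes of the table, of which 15 had any counts. A count of 0 therefore says nothing about the level of these tRNAs. An example is *mt-Tv*, the valine tRNA between the rRNAs (chrM:1025-1093, plus strand).
mt-Tv: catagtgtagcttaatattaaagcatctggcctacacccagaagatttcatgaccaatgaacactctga

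Adding the copies changed the picture of the share. The 7 copies alone took 9.98, 9.66, 9.94 and 9.96% in controls and 9.11, 8.89, 8.48 and 8.97% in mutants. With them, chrM sequence took 25.3, 24.4, 24.6 and 24.5% of counts in controls and 22.6, 22.7, 23.3 and 23.8% in mutants. Every mutant lay below every control, with means of 24.7 ± 0.400% and 23.1 ± 0.563% (SD, n = 4 each), a change of −6.51%. In the share of TPM the groups did not overlap either, with 42.7 ± 0.536% in controls and 40.9 ± 0.608% in mutants. They did overlap in CPM with TMM factors, the scale of the tests below, where the sums were 280140, 261478, 234314 and 234560 CPM in controls and 215461, 216651, 229339 and 249163 CPM in mutants. Controls 1 and 2 lay above every mutant, and the overlap came through controls 3 and 4, which lack Y-linked reads. CPM divides by the TMM factor, which was 0.904, 0.933, 1.05 and 1.05 in controls 1 to 4. In mutants 1 to 4 it was 1.05, 1.05, 1.02 and 0.957. In the share of counts, which has no such factor, controls 3 and 4 lay between controls 1 and 2. The difference in summed CPM was −24969.5 CPM over all kidneys and −43155.5 CPM in the kidneys with Y-linked reads. For the share of counts it was −1.61 and −1.72 percentage points. A share has no test here, since the genes were chosen as a set. In whole tissue, fewer cells rich in mitochondria and less mitochondrial RNA per cell cannot be told apart. The proximal tubule list summed to 10934, 11077, 7216 and 7998 CPM in controls and 7882, 7791, 9109 and 9290.3 CPM in mutants. *Slc34a1* alone averaged 5506 CPM in controls, and of the 7 listed genes 5 were lower and 2 higher in mutants. *Slc7a13*, 1 of those higher, was at 652, 398, 2.29 and 2.28 CPM in controls 1 to 4. The sum is therefore not a plain measure of proximal tubule content, and its part in the share was not tested.

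**Figure D2:**
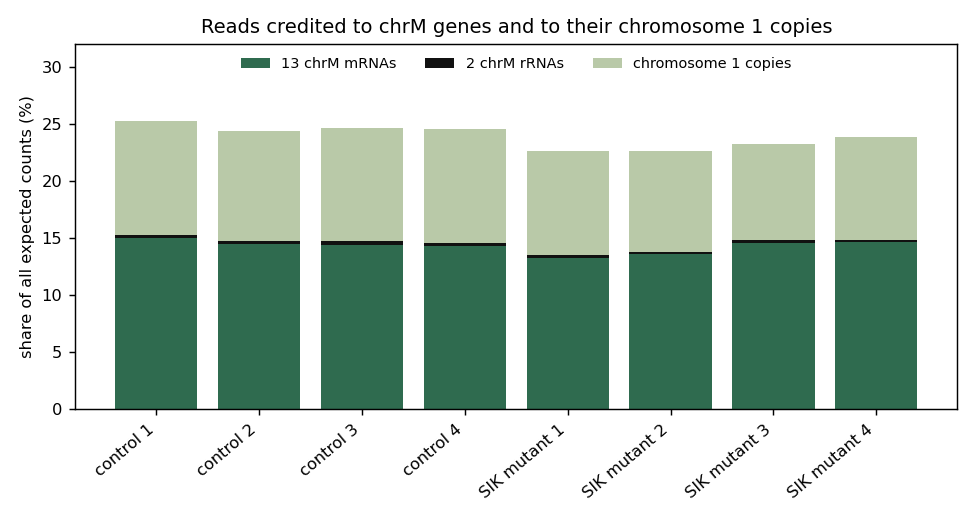
Share of all expected counts (%) in each kidney, stacked as the 13 chrM mRNAs, the 2 chrM rRNAs and the chromosome 1 copies. The full bars reach 24.4% to 25.3% in controls and 22.6% to 23.8% in SIK mutants, while the chrM part alone overlaps.

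Levels between genes were compared as counts per kilobase of effective length, scaled to the library total (RPKM-like), with copies merged. *mt-Atp6* (ATP synthase), *mt-Co3* and *mt-Co2* (cytochrome c oxidase, complex IV) were highest, at 61809 ± 1187, 62475 ± 1681 and 57805 ± 3342 in controls, and the ranges of these 3 over the controls overlapped. *mt-Co1*, the catalytic subunit of complex IV, followed at 41886 ± 892. *mt-Atp8*, at 34479.7 ± 889, rests on an effective length of only 19.4 to 25.4 bases and on 43 bases shared with *mt-Atp6*. The shared bases are in capitals in both, first the end of *mt-Atp8* (chrM:7915-7969) and then the start of *mt-Atp6* (chrM:7927-7981).
mt-Atp8: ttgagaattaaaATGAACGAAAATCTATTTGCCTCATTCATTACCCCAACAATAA
mt-Atp6: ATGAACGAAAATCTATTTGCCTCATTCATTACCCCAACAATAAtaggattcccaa

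The complex I subunits were spread out. On the same scale, *mt-Nd1* was at 28780 ± 2281 in controls and overlapped with *mt-Cytb*, the complex III subunit, at 27011 ± 869.7. *mt-Nd4* was at 21298 ± 847 and *mt-Nd3* at 19981 ± 908, with overlapping kidneys. *mt-Nd2* was at 14726 ± 756 and *mt-Nd4l* at 12702 ± 1054. *mt-Nd4l* shares 7 bases with *mt-Nd4* on the same strand and rests on an effective length of 85.2 to 98.1 bases. *mt-Nd5* lay lower, at 5445 ± 561. *mt-Nd6*, the only mRNA annotated on the minus strand, was lowest of the mRNAs, at 1581 ± 129.8, and shares 14 bases with *mt-Nd5* on the opposite strand. The rRNAs, at 1431 ± 186 for *mt-Rnr1* and 1193 ± 191 for *mt-Rnr2*, were among the lowest, and the range of *mt-Rnr1* overlapped that of *mt-Nd6*. The labels state that mRNAs were isolated before library construction, and the rRNA content of the tissue before that step was not measured.

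**Figure D3:**
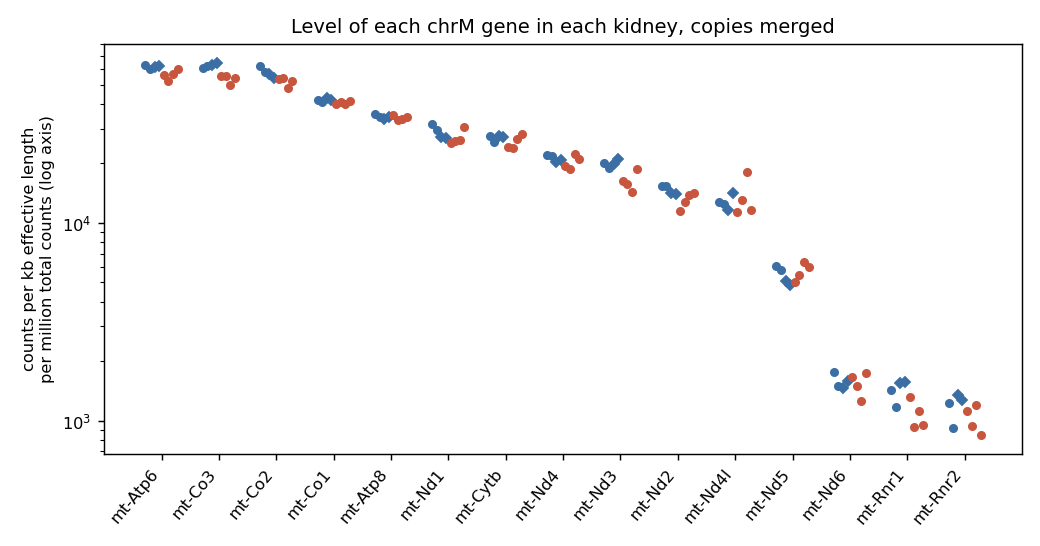
Counts per kilobase of effective length, scaled to the library total (log axis), for each of the 15 chrM genes with reads, copies merged, 1 point per kidney, controls in blue and SIK mutants in red, with diamonds for kidneys that lack Y-linked reads. *mt-Atp6*, *mt-Co3* and *mt-Co2* lead, and *mt-Nd6* and the rRNAs are lowest.

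Genotype was compared gene by gene with the edgeR quasi-likelihood test over the 14326 genes that passed the low-count filter. All 15 chrM mRNAs and rRNAs passed it. None of the 15 had an FDR under 0.05, nor did any other gene by edgeR. DESeq2, with its own filter, called 0 of the 15 and 71 genes in all. At an unadjusted p under 0.05 there was 1 of 15 as deposited, where 6.36% of all tested genes had it, and 3 of 15 with copies merged, against 6.37% of the 14320 genes tested there. All of these were lower in mutants, where 3.59% of all genes as deposited and 3.6% merged were called lower, and 0 of 15 were higher, against 2.76%. Without control 1, mutant 1 or mutant 2 the merged count was 1. Without control 2, control 4, mutant 3 or mutant 4 the count as deposited was 2. Over all genes, these fits had 8.13%, 6.6% and 4.05% merged and 6.54%, 5.31%, 4.66% and 7.31% as deposited, in that order. The log2 fold change was below 0 for 12 of 15, against 50.8% of all genes, with a median of −0.14. Reads of these genes share precursors and a library total, so the 15 are not independent.

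*mt-Rnr1* had the lowest log2 fold change of the 15, short of the FDR threshold. Its CPM were 1165, 925, 1102 and 1115 in controls and 935, 663, 827 and 734 in mutants. Control 2 lay within the mutant range. The log2 fold change was −0.45 (SE 0.131, unadjusted p = 0.00719, FDR 0.587) by edgeR. *mt-Rnr2* was at 1658 ± 226 CPM in controls and 1382 ± 201 CPM in mutants, with overlap and a log2 fold change of −0.26 (SE 0.143, unadjusted p = 0.0972, FDR 0.803) by edgeR. The ratio of *mt-Rnr1* to *mt-Rnr2*, which needs no library scaling, was 62.5, 68.9, 62.4 and 67.2 counts per 100 in controls and 64.0, 53.8, 50.7 and 61.0 in mutants, and the groups overlapped through mutant 1.

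For complex IV, *mt-Co3* with its copy had 38078, 37523, 34192 and 35338 CPM in controls and 30385, 30369, 28466 and 31910.1 CPM in mutants. No mutant reached the lowest control. Its merged log2 fold change was −0.26 (SE 0.113, unadjusted p = 0.0454, FDR 0.775) by edgeR. As deposited, without the copy, *mt-Co3* was at 1763 to 1988 CPM in controls and 1273 to 1974 CPM in mutants, which overlap. *mt-Co2* had a merged log2 fold change of −0.20 (SE 0.130, unadjusted p = 0.155, FDR 0.847) and *mt-Co1* of −0.09 (SE 0.120, unadjusted p = 0.457, FDR 0.936) by edgeR, with overlap of the CPM in both.

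*mt-Nd3*, a small core subunit of complex I, was the other gene whose groups did not overlap in CPM with TMM factors once merged. Its CPM with the copy were 2963, 2684, 2611 and 2794 in controls and 2206, 2173, 2069 and 2597 in mutants, and only mutant 4 came near the controls. The merged log2 fold change was −0.29 (SE 0.109, unadjusted p = 0.0255, FDR 0.721) by edgeR. Groups without overlap were 2 of 15 merged genes, against 4.04% of all genes (2.4% lower in mutants), and 0 of 15 as deposited, against 4.03% (2.39% lower in mutants). On the scale of counts per kilobase and library total, 4 of 15 merged genes did not overlap, all lower in mutants, against 3.92% of all genes (1.03% lower in mutants). The further 2 were *mt-Co2*, at 54280 to 62187 in controls and 47852 to 53855 in mutants, and *mt-Atp6*, at 60204 to 63004 and 52144 to 59848. Scaling to the library total also moves the other genes. With total counts alone, the merged median log2 fold change of all genes was 0.05, against −0.004 with TMM factors. The 1.03% carries that scaling and cannot be set beside the 2.4% in CPM. In the merged fit the other complex I genes had log2 fold changes of −0.14 for *mt-Nd1*, −0.21 for *mt-Nd2*, −0.11 for *mt-Nd4*, 0.13 for *mt-Nd4l*, 0.01 for *mt-Nd5* and −0.07 for *mt-Nd6*. All 6 overlapped between groups.

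For complexes III and V, *mt-Cytb* had a log2 fold change of −0.11 (SE 0.130, unadjusted p = 0.413, FDR 0.925) by edgeR and *mt-Atp6* of −0.17 (SE 0.123, unadjusted p = 0.190, FDR 0.863) with its copy. *mt-Atp8* was at 730.3 ± 39.3 CPM in controls and 769.6 ± 58.8 CPM in mutants, a log2 fold change of 0.08 (SE 0.0967, unadjusted p = 0.453, FDR 0.935) by edgeR. None of these 3 passed the test. As a share of the 13 mRNAs, complex IV genes made up 48.5 ± 0.816% in controls and 47.9 ± 2.08% in mutants. Complex I genes made up 29.2 ± 1.25% and 29.7 ± 1.41%, and no gene's share of the 13 separated the groups.

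**Figure D4:**
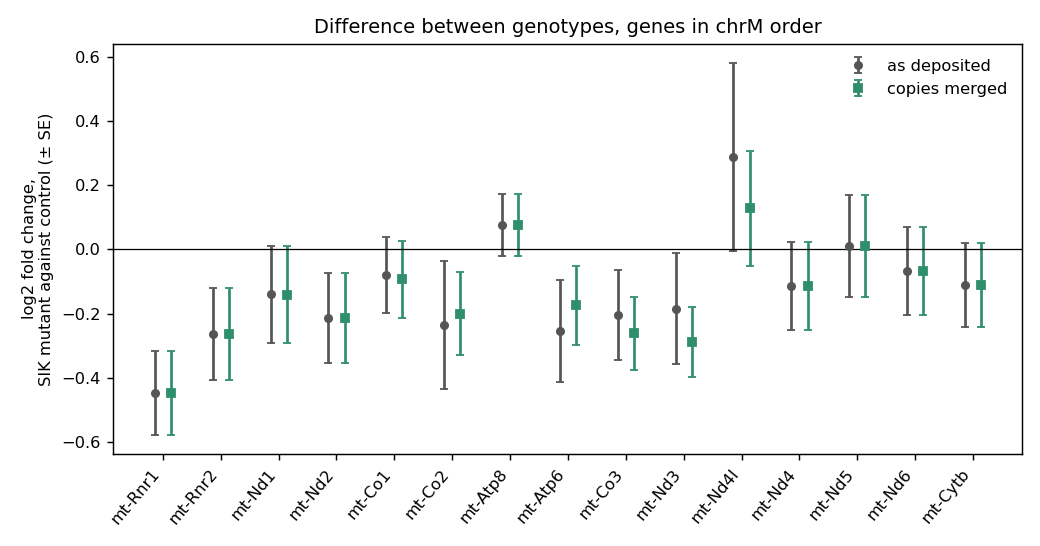
Log2 fold change of SIK mutant against control (± SE, edgeR, 4 kidneys each) for the 15 chrM genes in genome order, as deposited (gray) and with copies merged (green). *mt-Rnr1* is lowest at −0.45, and *mt-Atp8*, *mt-Nd4l* and *mt-Nd5* lie above 0.

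**Figure D5:**
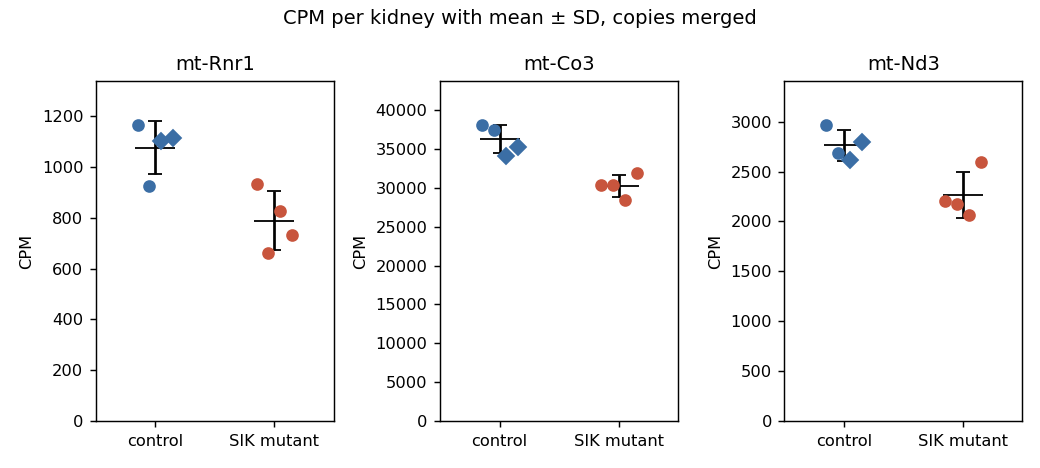
CPM per kidney with mean ± SD (n = 4 each) for *mt-Rnr1*, *mt-Co3* and *mt-Nd3*, copies merged, with diamonds for kidneys that lack Y-linked reads. In CPM, *mt-Co3* and *mt-Nd3* do not overlap between groups and *mt-Rnr1* does.

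Y-linked reads were found in 2 of 4 controls and in all 4 mutants. The Y-linked difference thus lies within the controls and in part between the groups, where it is mixed with genotype. The fit was therefore repeated on 2 controls and 4 mutants, the 6 kidneys in which such reads were found. Merged, 5 of 15 then had an unadjusted p under 0.05, namely *mt-Rnr1*, *mt-Nd2*, *mt-Co2*, *mt-Co3* and *mt-Nd3*, where 11.1% of all genes tested had it, and 0 of 15 had an FDR under 0.05. The log2 fold change of *mt-Nd5* went from 0.01 in all kidneys to −0.18 in these 6. In all kidneys, merged and scaled to the sum of the 13 mRNAs, 0 of 15 had an unadjusted p under 0.05, against 13.1% of all genes. That scaling divides the mRNAs by their own sum, so the count cannot show a shift that they share. It moves the median of all genes to 0.14.

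The nuclear genes that maintain, transcribe, process and translate mitochondrial DNA and RNA were examined next, with 8 nuclear activators in the same list. Of 68 listed, 66 were tested, 0 had an FDR under 0.05 by edgeR, and 1 had an unadjusted p under 0.05, against 6.36% of all genes, with 30 above and 36 below 0 and a median log2 fold change of −0.01. That gene was *Coa3*, an assembly factor of complex IV that acts on COX1 translation, at 70.2, 73.3, 71.4 and 68.7 CPM in controls and 59.5, 63.4, 62.7 and 66.9 CPM in mutants. *Polrmt*, the mitochondrial RNA polymerase, was at 35.2 ± 3.67 and 37.5 ± 2.86 CPM. *Tfam* and *Tfb2m*, which start transcription with it, had log2 fold changes of 0.03 (SE 0.110) and 0.02 (SE 0.109). *Tefm*, an elongation factor, was at −0.07 (SE 0.187). *Lrpprc* and *Slirp*, partners that stabilise mitochondrial mRNAs, were at 0.07 (SE 0.0972) and −0.19 (SE 0.0981).

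The nuclear-encoded partners of the chrM proteins, taken by symbol prefix and including assembly factors, were mostly on 1 side of 0 without passing the test. Of 85 tested, 0 had an FDR under 0.05 by edgeR, 80 had a log2 fold change below 0, against 50.8% of all genes, and the median was −0.15. An unadjusted p under 0.05 was found for 15, all lower in mutants, against 3.59% of all genes. They were *Ndufa5*, *Ndufa12*, *Ndufb2*, *Ndufb5*, *Ndufb8*, *Ndufb10* and the assembly factor *Ndufaf8* of complex I, *Cox5b*, *Cox6c*, *Cox7a1* and *Cox7a2* of complex IV, and *Atp5h*, *Atp5j*, *Atp5mpl* and *Atp5o* of ATP synthase. *Ndufb10*, with the lowest p of them, was at 120.2, 119, 125 and 116 CPM in controls and 105, 95.7, 103 and 99.0 CPM in mutants, a log2 fold change of −0.25 (SE 0.0721, FDR 0.564). The count of 15 moved with scaling, to 4 with total counts alone and 0 when scaled to the chrM mRNA sum. It was 6 without control 2, 5 without mutant 2 and 3 without mutant 3. In the same order, 1.86%, 1.06%, 3.91%, 2.41% and 2.56% of all genes were lower at an unadjusted p under 0.05.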

How the data were processed

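Whole-kidney libraries of 4 control and 4 SIK mutant mice were sequenced on a BGISEQ500. The submitters' processing notes name FastQC, STAR 2.7.2b, RSEM 1.3.0, DESeq2 and the mm10 build; the annotation and the use of strand are not given in the sources used here. Expected counts, as deposited, are RSEM's estimate of the reads of each gene and carry no normalisation. TPM, also as deposited, is scaled to gene length and library total. The effective lengths, posterior mean counts and posterior SD of the counts, other values deposited by the authors, are RSEM's as well.

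Genes were matched to GENCODE M21 without version (55141 of 55401). Nuclear copies were transcripts of pseudogenes that matched a chrM gene with blastn 2.17.0 over at least 100 bases at 80% identity or more, and those of the chromosome 1 block were merged by adding their counts to the chrM gene. The block and the merging were chosen after seeing the data. Expected counts were rounded and tested in edgeR 4.0.16 (R 4.3.3) by quasi-likelihood, TMM factors, filterByExpr, Benjamini-Hochberg FDR over all tested genes and no covariate. CPM use the TMM factors. In simulated counts for this comparison, run on 14326 genes, 161 of 200 genes changed 2-fold were recovered with 3 false calls. The changed genes had a mean of at least 50 counts. Changes as small as those of the chrM genes were not simulated. Intervals of shares are 95% Wilson intervals and cover counting error only, as the libraries carry no molecular identifiers. The kidneys are separate samples by their labels. Named were all 13 mRNAs and both rRNAs, tRNAs with a mean of at least 10 counts (0 qualified, so *mt-Tv* is shown for its sequence only), 6 nuclear genes in every case and list members with an unadjusted p under 0.05. The members and lists were chosen with earlier results of these data known. Alternatives were RLE and upper-quartile factors, total counts alone, chrM left out of scaling, scaling to chrM mRNAs, DESeq2 1.42.0, limma-trend (limma 3.58.1) on log2(TPM + 1) for genes with a mean TPM of at least 1, all genes unfiltered, a filter at a mean of 50 counts, a replicate block, a Y-linked covariate, kidneys with Y-linked reads and the removal of each kidney.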

Additional observations from a re-analysis of the deposited data

Results flagged for a closer look

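Control 2 stood apart from the other controls in the share of counts credited to the chromosome 1 copies, at 9.66% against 9.94% to 9.98%. Control 1 stood apart in *mt-Atp8*, at 789 CPM against 707 to 716 CPM in the other controls. A kidney counted as apart when its gap to the nearest other kidney of its group took up nearly all of the group's range. Chance alone flags about 1 in 20 groups, and 54 groups were examined.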

How the results depend on the processing

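Under each of 20 alternatives, 0 of the 15 chrM genes had an FDR under 0.05, as deposited and merged, and the same held for both nuclear lists. No replicate number pairs kidneys by label, and same-numbered kidneys did not deviate together (correlations −0.156, 0.0531, 0.0427 and −0.288; 2 of 8 kidneys correlated best with their own number). With the replicate block, the merged count at an unadjusted p under 0.05 went from 3 to 1. That of the nuclear subunits went from 15 to 6. Over all genes the share went from 6.37% to 4.58% merged and from 6.36% to 4.59% as deposited.

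The difference in chrM share was −0.588 percentage points as deposited and −1.61 with nuclear copies, and for the mRNA share the latter was −1.56, since the copies add their own difference. In the share of TPM the differences were −0.0897 for chrM genes and −0.0452 for their mRNAs. Both include *mt-Atp8*, whose TPM rest on a very short effective length. Leaving out 1 kidney gave −0.794 to −0.349 for the chrM share. Counts at an unadjusted p under 0.05 among chrM genes were 0 when scaled to the chrM mRNA sum (deposited and merged). That scaling removes any shift the mRNAs share. The counts were 3 as deposited and 5 merged with the Y-linked covariate or in the kidneys with Y-linked reads. On leaving out 1 kidney they were 1 to 2 (deposited) or 1 to 3 (merged). For the nuclear subunits they were 4 with total counts alone, 0 scaled to the chrM mRNA sum, 3 by limma-trend, 30 with the covariate, 23 in the kidneys with Y-linked reads and 3 to 22 on leaving out 1 kidney. As deposited, the share of all genes at an unadjusted p under 0.05 was 6.51% with total counts alone and 8.38% by limma-trend. It was 7.85% scaled to the chrM mRNA sum (13.1% merged). On leaving out 1 kidney it was 4.09% to 8.12% (4.05% to 8.13% merged). With the covariate it was 12.1%, and 11.1% in the kidneys with Y-linked reads, as deposited and merged alike. The main fit on all kidneys as deposited had 6.36%. The cause was not tested.

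Merged and scaled to the chrM mRNA sum, 7 of the 15 genes lay below 0, against 12 in the main merged fit. In the fits as deposited, the sign turned for 4 genes, all with an FDR far above the threshold. *mt-Co1* was at 0.0278 scaled to chrM mRNAs and 0.0265 by limma-trend, and *mt-Nd6* at 0.0484 and 0.0168. With the covariate, *mt-Nd5* was at −0.21 and *mt-Nd4l* at −0.14, and in the kidneys with Y-linked reads they were at −0.18 and −0.0719. Leaving out 1 kidney gave −0.0674 to 0.107 for *mt-Nd5* and −0.151 to 0.0295 for *mt-Nd6*. With posterior mean counts in place of expected counts, *mt-Co2* went from −0.24 to −0.08 and *mt-Atp6* from −0.25 to −0.05. As deposited, *mt-Rnr1*, *mt-Rnr2*, *mt-Nd1*, *mt-Nd2*, *mt-Co2*, *mt-Atp6*, *mt-Co3*, *mt-Nd3*, *mt-Nd4* and *mt-Cytb* stayed below 0 under every setting run, and *mt-Atp8* stayed above 0. With their copies, *mt-Co3* and *mt-Nd3* also stayed below 0.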
